A study of Mus musculus with 37 samples.

Results

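The guidance genes described here encode the ephrins and their Eph receptors, the semaphorins of classes 3 to 7 with their plexin and neuropilin receptors, the Slits and Robo receptors, and the netrins Ntn1 and Ntn4 with the Unc5 receptors. Every gene on the array whose symbol belongs to one of these families was taken, whatever its level, which gave 65 genes read by 146 probe sets. Of these, 64 passed the filter on dim probe sets, among 15709 genes tested in all. Epha10 did not pass, with a highest level of 6.44 on the log2 signal scale. Ephb2 was not analysed here, and 3 symbols that resemble the family names (Plxna4os1, Unc5cl and Unc50) were not counted.

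The samples were 37 arrays from wild-type kidneys of CD-1 mouse embryos, an outbred stock, with no genetic change or treatment in any group. Material from 9 kidney components was compared. At E11.5 (E for embryonic day) these were the metanephric mesenchyme (8 arrays), which gives rise to nephrons and stroma, and the ureteric bud (4 arrays), the epithelial outgrowth that branches into the collecting ducts. The renal vesicle (5 arrays, E12.5) is the first epithelial stage of a nephron. At E15.5 the components were the S-shaped body (4 arrays), the renal corpuscle (4 arrays), the proximal tubule (2 arrays), the ureteric tip (3 arrays), the medullary collecting duct (3 arrays) and the medullary interstitium (4 arrays). Each array was made from a pool of about 50 sections from 5 kidneys, and the RNA went through 2 rounds of amplification. The labels state laser capture for every array, but the titles of the 4 ureteric bud arrays and of mesenchyme replicates 5 to 8 name dissection or collagenase. The labels do not say which animals went into which pool, so the p-values measure only the spread between these pools. In such material, fewer cells of a type and less RNA per cell cannot be told apart.

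Guidance molecules were named for steering growing axons, and they also act on epithelia, blood vessels and migrating cells. Ephrins are bound to the cell surface and signal on contact with Eph receptors. Class 3 semaphorins are secreted and are read by plexins with neuropilins as co-receptors, Slits are secreted ligands of Robo receptors, and netrins are secreted ligands of Unc5 receptors. In the kidney, Slit2 and Robo2 are known for restricting the ureteric bud to a single outgrowth, and vascular semaphorins and ephrins for their roles in glomerular and vessel growth.

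Levels below are log2 signal after an offset was added and the arrays were normalised to the same distribution. A signal of 0 corresponds to about 5.12 on this scale and the median of all values was 7.89. Differences are log2 differences of component means with their standard error (SE). A difference from the other E15.5 components is taken from the unweighted mean of their 5 component means. It does not place the component above or below each of them. A gene was called where the limma test gave a Benjamini-Hochberg adjusted p below 0.05 over all 15709 genes and the difference was at least 1. Where a gene had several probe sets, the one with the highest mean was used. The others are given for some calls only, so a call printed without them is not one on which they agreed.

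Before the comparisons, the components were set against marker genes. Of the ureteric epithelium markers, 6 of 6 measured were higher in the ureteric bud than in the mesenchyme. Early nephron markers were higher in the renal vesicle than in the mesenchyme for 6 of 6, podocyte markers higher in the renal corpuscle than in the other E15.5 components for 4 of 4, and interstitial markers higher in the medullary interstitium for 6 of 7. In the proximal tubule, 4 of 6 proximal markers were higher than in the S-shaped body. By their podocyte markers, 2 libraries went against their labels. The array labelled as the third S-shaped body sample (replicate 3) had a podocyte marker mean of 14.94, against a lowest of 10.71 and a median of 11.21 in the other S-shaped body libraries. Its proximal tubule marker mean was 12.65 (9.25 to 9.96 in the others) and its interstitial marker mean 13.86 (10.83 to 10.96). Both were also above every library labelled corpuscle (at most 10.04 and 12.76). The part of these markers in its guidance gene levels was not tested. The library labelled renal corpuscle replicate 4 had a podocyte marker mean of 10.70, against 14.15 to 15.29 in the other corpuscle libraries, and an early nephron marker mean of 12.59, against 8.97 to 9.71. Results that rest on these 2 libraries are given with and without them. Other arrays were mixed by markers too. Corpuscle replicate 2 had a nephron progenitor marker mean of 11.65, against 7.82 to 8.66 in the other corpuscle libraries. Interstitium replicate 1 had a ureteric marker mean of 12.01, against 10.61 to 11.45 in the collecting duct. Of the 37 arrays, 29 correlated best with an array of their own component, among them 2 of 4 corpuscle, 2 of 4 interstitium and 1 of 2 tubule arrays. Mesenchyme replicates 1 to 4 had ureteric marker means of 9.22 to 11.02, and replicates 5 to 8 had 7.71 to 7.97. The log2 ratio of the 3′ to the 5′ probe sets for Actb was 3.43 to 5.16 in the E11.5 and E12.5 components and the proximal tubule, and 1.35 to 3.07 in the other components, so this sign of RNA quality differs between the sides of some comparisons. The same ratio for Gapdh ordered the components otherwise. It was 2.71 to 3.61 in the bud, below the mesenchyme (3.83 to 6.12) and the ureteric tip (4.69 to 4.84). The part of RNA quality in the differences below was not tested. Beside the ureteric markers, 5 of 7 interstitial, 4 of 4 mural and mesangial, 4 of 7 endothelial and 3 of 5 macrophage markers were lower in the bud than in the mesenchyme, and 5 of 7 interstitial markers were lower in the vesicle. The part of these markers in the differences below was not tested either.

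Among the 64 guidance genes, 47 (73.4%) differed among the 9 components by the F test, whereas 49.9% of all genes did. Every measured secreted semaphorin (7 of 7), ephrin-B (3 of 3), netrin (2 of 2), neuropilin (2 of 2) and Unc5 receptor (4 of 4) was among them. The test was passed by 4 of 5 ephrin-A genes, 6 of 8 EphA receptors, 5 of 6 class 4 semaphorins, 5 of 7 class 5 to 7 semaphorins, 2 of 3 Slits, 2 of 4 Robo receptors and 4 of 9 plexins. Of the 4 EphB receptors, Ephb1 alone passed. The renal corpuscle held the highest mean for 10 of the 47 genes (21.3%), against 8.48% of all genes that differed. The proximal tubule held 7 (14.9%, against 22.8%), the ureteric bud 8 (17%, against 20.4%), the mesenchyme 7 (14.9%, against 13.2%) and the interstitium 6 (12.8%, against 10.6%). These shares are descriptions, with no test.

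**Figure D1:**
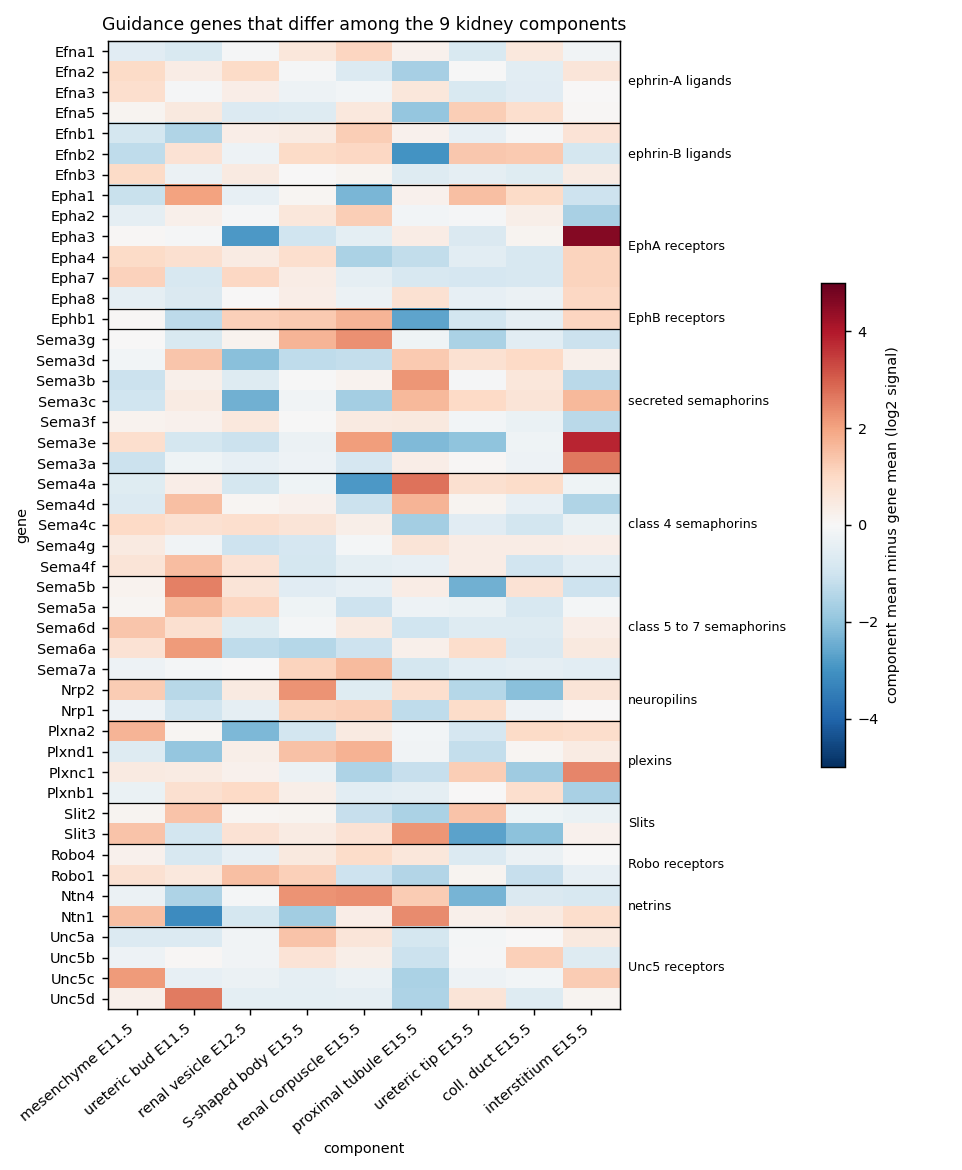
Mean level of the 47 guidance genes that differ among components, as the component mean minus the gene's mean over the 9 component means (log2 signal), with genes in rows grouped by family and components in columns. Epha3 and Sema3e stand out in the medullary interstitium, and Ntn1 is lowest in the ureteric bud.

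In the 10 planned comparisons the median difference of the guidance genes lay between -0.30 and 0.27, and that of all genes between -0.22 and 0.09. At E11.5, 7 guidance genes were higher in the ureteric bud than in the mesenchyme (4.07% of all genes were called higher) and 6 were lower (4.07%). From mesenchyme to renal vesicle 1 was higher (3.87%) and 6 were lower (7.93%). From vesicle to S-shaped body 4 were higher (3.29%) and 1 was lower (1.74%). From S-shaped body to renal corpuscle none was higher (0.102%) and 3 were lower (0.477%), and at an unadjusted p below 0.05 limma gave 4 higher and 8 lower. Unadjusted counts, here and in all later sections, lack the share of all genes at that threshold. They therefore do not set the genes counted apart from all genes, and the percentages refer to adjusted calls. From S-shaped body to proximal tubule 2 were higher (5.64%) and 9 were lower (4.28%).

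In the collecting system at E15.5, 1 guidance gene was higher in the ureteric tip than in the medullary collecting duct (0.121%) and none was lower (0.236%), against 6 higher and 5 lower at an unadjusted p below 0.05 by limma. Between the E15.5 tip and the E11.5 bud 1 was higher (2.04%) and 3 were lower (2.19%). The medullary interstitium differed from the medullary collecting duct by 4 higher genes (2.02%) and 4 lower genes (2.46%). Against all other E15.5 components, the renal corpuscle had 7 higher (2.02%) and 5 lower (3.4%), and the medullary interstitium 6 higher (3.49%) and 6 lower (2.64%). The 10 comparisons gave 76 calls over 40 genes, and some comparisons share samples. Of the 76 calls, 23 were kept under each alternative setting and each left-out array that applied to them. Arrays named below as ending a call are those of the components compared. Because all arrays share 1 estimate of spread, 6 calls were also lost without single arrays outside the comparison (adjusted p at most 0.0585). These arrays numbered 22 for Unc5a, 18 for Sema4f and 14 for Ntn4 in S-shaped body against vesicle, 11 for Epha2 in the corpuscle, 11 for Sema3b in the interstitium, and 2 for Epha1 in interstitium against duct. Of the 59 calls on genes with further probe sets, 22 had another probe set called the same way and 13 had another with the opposite sign.

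**Figure D2:**
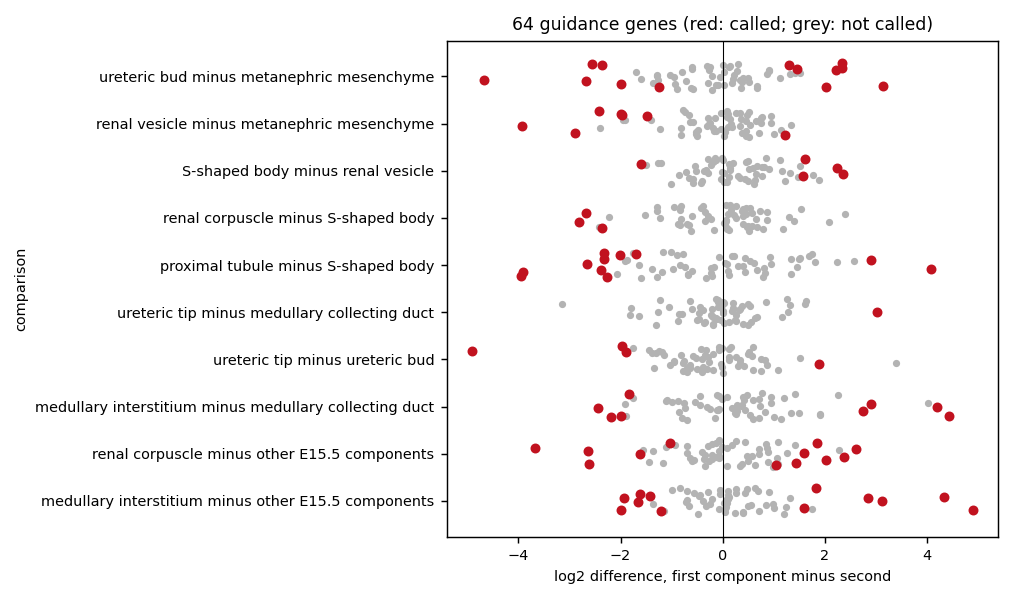
Log2 difference (horizontal axis) of each of the 64 guidance genes in each of the 10 comparisons (rows), with called genes in red and others in grey. Most of the 64 genes lie close to 0 in each row, and the called genes lie on both sides except in the comparison of corpuscle with S-shaped body, where the 3 called genes are lower, and of ureteric tip with collecting duct, where the 1 called gene is higher.

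Among the ephrin ligands, Efnb2 gave the most calls. Efnb2, a transmembrane ephrin that marks arterial endothelium and is also made by epithelia, was 14.61, 13.43, 13.90 and 14.03 in the 4 ureteric bud arrays and ranged from 10.51 to 13.51 (median 12.06) in the 8 mesenchyme arrays. The groups overlapped only at mesenchyme replicate 1, and the bud was higher by 2.02 (SE 0.38, adjusted p = 0.000298). One of its 2 other probe sets gave 2.04 and the other 0.50. Efnb2 was 13.70 to 14.56 in the S-shaped body, and 9.65 and 10.87 in the 2 proximal tubule arrays. The tubule was thus lower than the S-shaped body by 3.95 with no overlap (SE 0.54, adjusted p = 6.06e-06). Another probe set gave -4.40, and the last had the opposite sign (0.72).

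In the E15.5 medulla, Efnb2 was 14.23, 14.66 and 14.82 in the collecting duct and 12.78, 12.20, 12.28 and 12.25 in the interstitium. Every interstitial array was below every duct array, and the difference was -2.19 (SE 0.48, adjusted p = 0.00486). Another probe set gave -2.46, and the last had the opposite sign (0.77). These 3 calls for Efnb2 held under each alternative and left-out array. Against all other E15.5 components together the interstitium was lower by a difference of -1.21 (SE 0.35, adjusted p = 0.0308), a call lost without proximal tubule replicate 2 (adjusted p = 0.055) or without interstitium replicate 2, 3 or 4 (adjusted p 0.0902 to 0.113). The other probe sets gave -1.33 and 0.38 here, uncalled.

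Efnb1, a second ephrin-B, was lowest in the ureteric bud and highest in the renal corpuscle. Its levels in the renal vesicle were 12.93, 11.70, 12.30, 12.33 and 12.26, against 10.48 to 11.68 (median 11.09) in the mesenchyme. All vesicle arrays were above all mesenchyme arrays, and the difference was 1.22 (SE 0.29, adjusted p = 0.00386). Against only the 3 mesenchyme arrays titled as laser capture it was 0.84 (adjusted p = 0.23). The corpuscle exceeded the mean of the other E15.5 components by 1.05 (SE 0.29, adjusted p = 0.0237), which no longer passed without corpuscle replicate 1 or 3 (adjusted p 0.0651 and 0.183), and without proximal tubule replicate 2 or interstitium replicate 2 fell under the fold threshold. Corpuscle arrays (12.34 to 14.09) overlapped those of the S-shaped body (12.18 to 12.77) and the interstitium (11.70 to 12.98).

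Efnb3 was lower in the ureteric bud than in the mesenchyme without overlap (difference -1.24, SE 0.38, adjusted p = 0.0345), but the call was lost without any 1 of the 4 bud arrays or without mesenchyme replicate 5, 6 or 8 (adjusted p 0.0592 to 0.118). The ephrin-A genes, which encode ligands tethered to the membrane by a lipid anchor, gave a single call. Efna4 was 9.49, 9.62, 7.29 and 9.96 in the S-shaped body and 5.58 and 8.06 in the proximal tubule, so that the groups overlapped at S-shaped body replicate 3. The difference of -2.27 (SE 0.72, adjusted p = 0.037) was lost without proximal tubule replicate 1 (adjusted p = 0.538) or S-shaped body replicate 1, 2 or 4 (adjusted p 0.0749 to 0.102). Efna5 had component means from 9.18 in the proximal tubule to 12.36 in the ureteric tip and was not called in any of the 10 comparisons. Efna2 had its lowest mean, 9.41, in the proximal tubule, where the SD of 4.03 over the 2 arrays left the value poorly determined.

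Among the Eph receptors, Epha3 had the largest difference in the medullary interstitium of all guidance genes. Its interstitial levels were 13.41, 14.31, 14.97 and 14.60. The medullary collecting duct arrays had 10.65, 9.02 and 10.00, the ureteric tip 10.16, 7.26 and 9.60, and the proximal tubule 10.03 and 10.21. The S-shaped body had 5.51, 7.83, 12.16 and 9.59 and the renal corpuscle 10.10, 7.84, 11.64 and 7.44. All 4 interstitial arrays were above the other 16 E15.5 arrays, and the difference was 4.91 (SE 0.80, adjusted p = 0.000139). The 3 other Epha3 probe sets gave 2.38, 4.63 and 1.55, each called. Against the collecting duct alone the difference was 4.43 (SE 1.08, adjusted p = 0.0116), which was lost without collecting duct replicate 2 (adjusted p = 0.117).

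Epha3 was near the floor in 4 renal vesicle arrays (5.32, 6.41, 5.88 and 6.01) and 10.84 in vesicle replicate 3. That array also had the highest interstitial marker mean of the vesicle arrays, 12.36, whose part in the Epha3 level was not tested. The vesicle was lower than the mesenchyme by a difference of -2.90 (SE 0.81, adjusted p = 0.0135), but the call was lost without vesicle replicate 1 (adjusted p = 0.0572) and with the laser capture mesenchyme alone (adjusted p = 0.16), and 2 of the 3 other probe sets had the opposite sign (0.37 and 0.44).

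Epha1 had its 3 highest component means in the ureteric bud, the ureteric tip and the medullary collecting duct. It was 10.73, 9.94, 9.69 and 9.94 in the ureteric bud and 5.71 to 7.78 (median 7.15) in the mesenchyme. The groups did not overlap, and the bud was higher by 3.15 (SE 0.47, adjusted p = 1.2e-05). Its second probe set gave 0.70 and was not called. At E15.5 it was 9.40, 9.91 and 9.41 in the ureteric tip, whereas the renal corpuscle had 5.48, 6.78, 5.38 and 5.49. The corpuscle was lower than the other E15.5 components by a difference of -2.62 (SE 0.44, adjusted p = 0.000396), again with the second probe set uncalled at -0.16. The interstitium was lower than the collecting duct (-1.99, SE 0.59, adjusted p = 0.0431), a call lost without duct replicate 2 or 3 or interstitium replicate 2 or 4 (adjusted p 0.0767 to 0.325).

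Epha7 binds mainly ephrin-A ligands, and Epha4 binds ephrins of both classes. Epha7 was 9.94, 9.11, 10.11 and 9.75 in the bud and 10.85 to 12.40 (median 11.91) in the mesenchyme, without overlap. The difference was -1.99 (SE 0.53, adjusted p = 0.0105), lost without bud replicate 2 (adjusted p = 0.0622). In the interstitium Epha7 was 10.79, 11.41, 12.60 and 11.80, above the mean of the other E15.5 components by 1.60 (SE 0.48, adjusted p = 0.0372). The S-shaped body overlapped it at 11.80, 11.79, 8.49 and 11.65, with 8.49 in the library labelled replicate 3. The interstitium call was lost without any 1 of interstitium replicates 2, 3 and 4, proximal tubule replicate 1, collecting duct replicate 2, or ureteric tip replicates 2 and 3 (adjusted p 0.0525 to 0.226). Epha4 was not called in the 10 comparisons with all arrays. Without the 2 libraries that went against their labels it was lower in the corpuscle than in the S-shaped body by a difference of -4.04 (SE 0.76, adjusted p = 0.00125), against -2.43 with them.

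Epha2 was higher in the corpuscle than elsewhere at E15.5 by 1.43 (SE 0.44, adjusted p = 0.0459), with a call that was lost without any 1 of 11 E15.5 arrays (corpuscle replicates 1, 3 and 4, proximal tubule replicate 2, duct replicates 1 and 3, tip replicates 1 and 2, S-shaped body replicates 1 and 4, and interstitium replicate 4, adjusted p 0.0512 to 0.172). Epha2 was lower in the interstitium than in the other E15.5 components (-1.99, SE 0.44, adjusted p = 0.00369). The interstitial arrays were 10.19, 9.61, 6.72 and 7.17, so the lower mean came from replicates 3 and 4, and the call was lost without either (adjusted p 0.0836 and 0.0615).

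Ephb1 was the EphB receptor with the widest range. It was 12.83, 11.23, 12.09 and 11.95 in the S-shaped body and 7.73 and 8.47 in the proximal tubule. The tubule was lower without overlap, by a difference of -3.92 (SE 0.71, adjusted p = 0.000254). In the corpuscle it was 13.35, 12.09, 12.13 and 12.12, above the mean of the other E15.5 components by 2.03 (SE 0.46, adjusted p = 0.00591). The S-shaped body and the interstitium (12.02, 10.57, 11.88 and 12.64) overlapped the corpuscle. The tubule and corpuscle calls for Ephb1 held under each alternative and left-out array. Ephb4, a venous receptor for Efnb2, had component means between 8.73 and 9.77 and did not differ among components by the F test (adjusted p = 0.336).

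**Figure D3:**
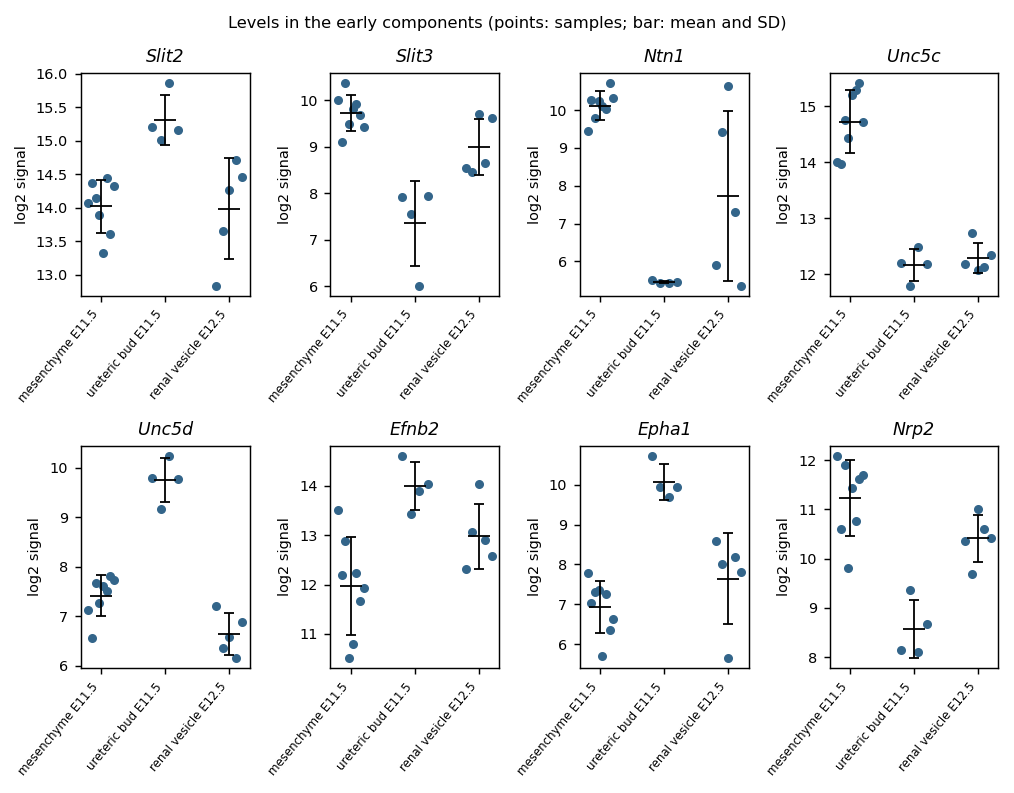
Log2 signal (vertical axis) of 8 guidance genes in the mesenchyme, ureteric bud and renal vesicle, with a point for each array and bars for the mean and SD. Slit2, Unc5d, Epha1 and Efnb2 are higher in the bud, and Slit3, Ntn1, Unc5c and Nrp2 are lower, with all 4 bud arrays of Ntn1 between 5.43 and 5.51.

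Of the 7 secreted semaphorin genes, Sema3a and Sema3e were called higher in the medullary interstitium than in the other E15.5 components and Sema3b and Sema3f lower. Sema3a, a repellent of axons that is read through Nrp1, was 13.21, 12.98, 13.64 and 13.83 there. The other E15.5 arrays ran no higher than 11.70, so the groups did not overlap, and the interstitium was higher by 2.84 (SE 0.57, adjusted p = 0.0013). The other 2 probe sets gave 0.50 and 2.07, of which 1 was called. The difference from the collecting duct alone was 2.90 (SE 0.77, adjusted p = 0.0204), lost without duct replicate 2 or 3 or interstitium replicate 3 or 4 (adjusted p 0.0573 to 0.155).

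Sema3e, a ligand of Plxnd1 that acts without a neuropilin, was 12.18, 11.16, 13.22 and 10.85 in the interstitium. It was near the floor in the proximal tubule (5.73 and 5.93) and the ureteric tip (5.49, 6.23 and 6.36), and 6.87, 7.54 and 9.08 in the collecting duct. In the S-shaped body it was 5.68, 6.06, 13.50 and 5.71 and in the renal corpuscle 10.50, 10.52, 13.82 and 5.67. The outlying value of each belongs to the library that went against its label. The interstitium was higher than the rest by 4.34 (SE 0.93, adjusted p = 0.00268), in every alternative tried, although the 3 other probe sets gave 0.74 to 0.94 and were not called. Without those 2 libraries the corpuscle was higher than the S-shaped body by 5.80 (SE 0.70, adjusted p = 3.8e-06) and higher than the other E15.5 components by 4.14 (SE 0.55, adjusted p = 5.28e-06). With all arrays the differences were 2.39 and 2.27 and neither was called.

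**Figure D4:**
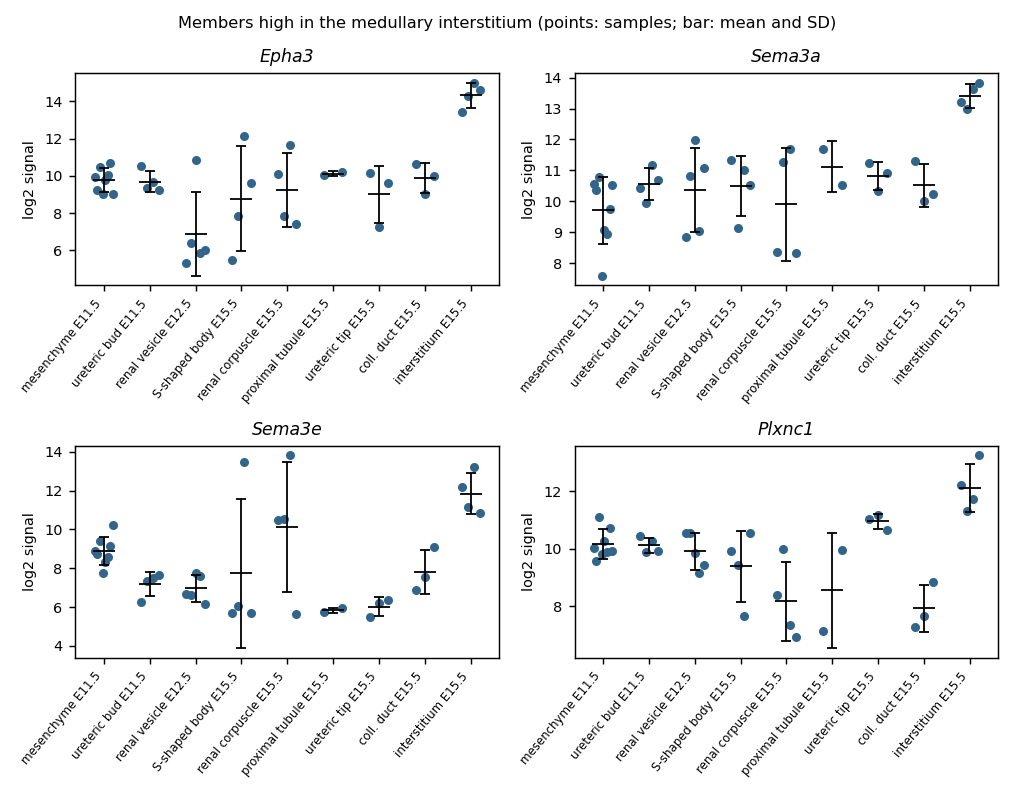
Log2 signal (vertical axis) of Epha3, Sema3a, Sema3e and Plxnc1 in all 9 components, with a point for each array and bars for the mean and SD. For Epha3, Sema3a and Plxnc1 each interstitial array is above every other E15.5 array, and for Sema3e 1 S-shaped body array (13.50) and 1 corpuscle array (13.82) lie above the interstitial arrays.

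Sema3g, a class 3 semaphorin of vessels, was 11.06, 10.30, 11.29 and 10.71 in the corpuscle. It was 9.18, 9.95, 12.04 and 9.84 in the S-shaped body, where only the one labelled replicate 3 lay above the corpuscle, and at most 9.19 in the 12 other E15.5 arrays. The corpuscle was higher by 2.61 (SE 0.49, adjusted p = 0.00123) and by 2.77 (SE 0.51) without the 2 libraries. Sema3c, which is read by neuropilins and Plxnd1, ran the other way. It was 11.27, 12.89, 10.16 and 12.40 in the corpuscle, against 14.38, 14.89, 15.33 and 15.32 in the interstitium and 15.27 and 14.75 in the proximal tubule. Tip and duct arrays had 13.83 to 14.71. The S-shaped body had 13.80, 11.60, 14.76 and 12.65, which overlapped the corpuscle, and those 2 components did not differ by a call. The corpuscle was lower than the other E15.5 components together by a difference of -2.64 (SE 0.50, adjusted p = 0.00128), also in every alternative. The second probe set gave -1.18, uncalled. Sema3c was 8.08 in vesicle replicate 1 and 11.07 to 12.21 in the other 4 vesicle arrays, and was higher in the S-shaped body than in the vesicle by 2.23 (SE 0.60, adjusted p = 0.0233), a call lost without vesicle replicate 1 or S-shaped body replicate 1 or 3 (adjusted p 0.0707 to 0.145).

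Sema3f and Sema3b were lower in the interstitium than in the other E15.5 components. Sema3f was 9.83, 7.43, 9.16 and 8.73 there, with a difference of -1.43 (SE 0.31, adjusted p = 0.00339). The probe set used is of a type that can bind related transcripts, and the call was lost with the other probe set tried (-0.57, adjusted p = 0.64) and without interstitium replicate 2 (adjusted p = 0.0599). The Sema3b call (-1.93, SE 0.61, adjusted p = 0.0463) was lost without any 1 of 11 E15.5 arrays, which were corpuscle replicate 1, tubule replicate 1, duct, tip and S-shaped body replicates 2 and 3, and interstitium replicates 2, 3 and 4 (adjusted p 0.0514 to 0.197). Markers moved with these groups too. In the corpuscle 3 of 7 endothelial markers were higher than in the other E15.5 components, with endothelial marker means of 9.31 to 11.83 in the corpuscle, 9.13 to 11.02 in the S-shaped body and 7.45 to 8.39 in the ureteric tip. Interstitial arrays held 2 of 5 higher macrophage markers, and ureteric marker means of 12.01, 10.40, 8.49 and 8.32. Their part in the semaphorin differences was not tested.

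**Figure D5:**
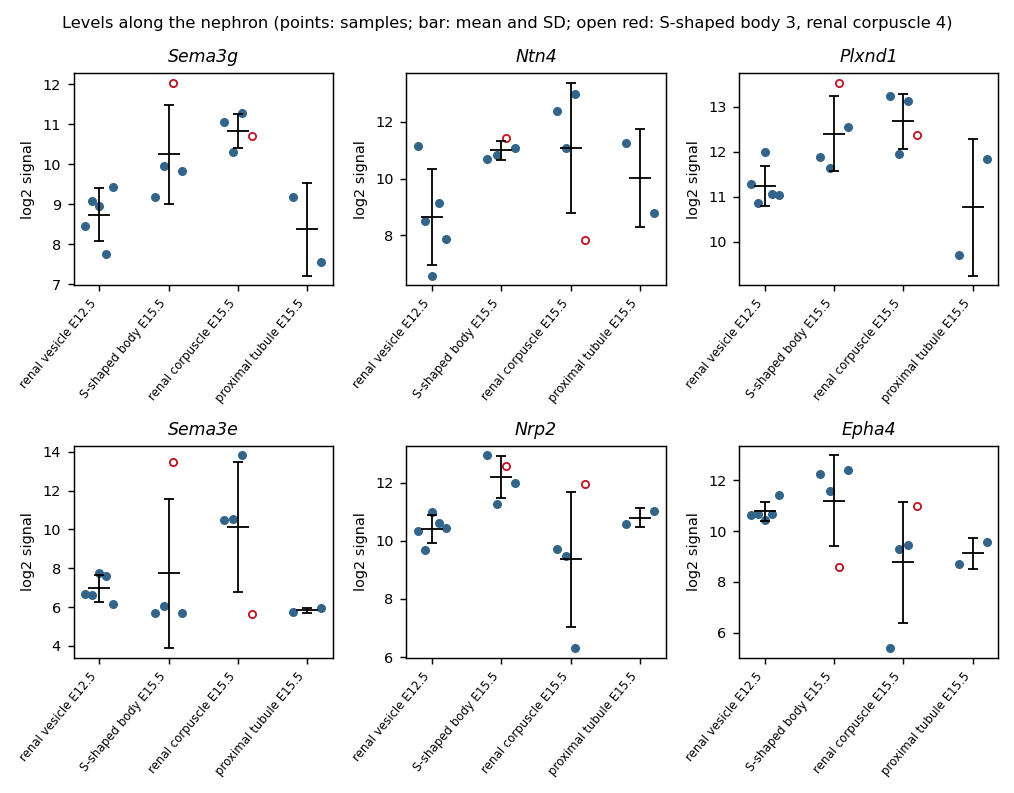
Log2 signal (vertical axis) of 6 guidance genes in the renal vesicle, S-shaped body, renal corpuscle and proximal tubule, with a point for each array, bars for the mean and SD, and open red points for the 2 libraries that went against their labels. For Sema3e both open points lie apart from the other arrays with their label. For Nrp2 the open S-shaped body point (12.56) lies among the S-shaped body arrays, and the open corpuscle point (11.95) above the other corpuscle arrays.

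The class 4 semaphorins are membrane-bound, and Sema4a and Sema4d are best known from immune cells. Sema4a was 5.20, 8.27, 5.24 and 7.02 in the corpuscle, 9.03, 8.75, 9.35 and 9.28 in the S-shaped body, and 12.14 and 11.89 in the proximal tubule. All corpuscle arrays were below all other E15.5 arrays (difference -3.68, SE 0.42, adjusted p = 1.49e-06), and the second probe set was called at -2.97. The proximal tubule exceeded the S-shaped body by 2.91 (SE 0.64, adjusted p = 0.00243), with the second probe set called at 2.37, although with only these samples in the fit the adjusted p was 0.063. The corpuscle was also lower than the S-shaped body by a difference of -2.67 (SE 0.52, adjusted p = 0.0147), lost without corpuscle replicate 3 (adjusted p = 0.0702).

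Sema4d, the ligand of Plxnb1, was 11.79, 11.45, 11.43 and 11.71 in the ureteric bud and 8.87 to 9.66 (median 9.41) in the mesenchyme. The groups were far apart relative to their spread, with a difference of 2.22 (SE 0.39, adjusted p = 9.88e-05), while the second probe set gave 0.46 and was not called. Sema4d was lower in the interstitium than in the other E15.5 components (-1.61, SE 0.36, adjusted p = 0.00358), a call lost without interstitium replicate 3 (adjusted p = 0.0566). Sema4c was 8.83 and 10.05 in the proximal tubule and 11.27 to 12.06 in the S-shaped body (difference -2.32, SE 0.55, adjusted p = 0.00467), and the call was lost without tubule replicate 1 (adjusted p = 0.146). Sema4f was lower in the S-shaped body than in the vesicle without overlap (-1.59, SE 0.49, adjusted p = 0.05 after rounding), a call at the threshold that was lost without any 1 of the arrays compared except vesicle replicate 2 (adjusted p 0.0629 to 0.123).

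Among the class 5 to 7 semaphorins, Sema5b separated the E15.5 tip from the E11.5 bud. It was 12.07, 11.27, 10.61 and 11.04 in the E11.5 bud and 5.59, 6.25 and 7.17 in the E15.5 tip. The tip was lower than the bud without overlap (difference -4.91, SE 0.78, adjusted p = 0.000129), and the second probe set was called at -1.87. The low level was not shared by the E15.5 collecting duct, where Sema5b was 8.25, 10.35 and 9.86. Stage, title method and the Actb 3′ to 5′ ratio (3.45 to 4.02 in the bud, 1.43 to 2.43 in the tip) change together in this comparison and cannot be told apart. The Gapdh ratio changes with them in the opposite direction (2.71 to 3.61 in the bud, 4.69 to 4.84 in the tip). In the tip 6 of 7 interstitial markers (median difference 3.90) and 3 of 4 mural and mesangial markers (median difference 3.03) were also higher, with interstitial marker means of 10.60 to 12.98 in the tip and 7.52 to 8.85 in the bud. Their part in the tip and bud differences, those of Nrp1 and Unc5d included, was not tested. Sema5b was also higher in the bud than in the mesenchyme by 2.34 (SE 0.62, adjusted p = 0.011), lost without bud replicate 1 (adjusted p = 0.0731). Its second probe set gave 0.85 there, uncalled.

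Sema5a was the clearest case of disagreement between probe sets. The one used was higher in the bud than in the mesenchyme (1.45, SE 0.42, adjusted p = 0.022) and lower in the E15.5 tip than in the bud (-1.90, SE 0.53, adjusted p = 0.0293). The other 3 gave 1.10, -0.30 and 0.02 in the first comparison and 1.34, 3.85 and 0.02 in the second, where the 3.85 had an adjusted p of 0.00222. The first call was lost without bud replicate 1, 3 or 4 (adjusted p 0.0582 to 0.0989) and the second without any tip array or bud replicate 1, 3 or 4 (adjusted p 0.0636 to 0.116), so no direction of Sema5a is given here.

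Sema6a and Sema6d, transmembrane semaphorins that are read by class A plexins, were lower in the vesicle than in the mesenchyme, with a difference of -1.98 for Sema6a (SE 0.53, adjusted p = 0.00985) and of -2.00 for Sema6d (SE 0.56, adjusted p = 0.0128). The Sema6a call was lost without vesicle replicate 1 (adjusted p = 0.0746) and the Sema6d call without vesicle replicate 3 (adjusted p = 0.0635), and each had another probe set of opposite sign (0.46 for Sema6a, 0.65 and 0.38 for Sema6d). Sema7a, a lipid-anchored semaphorin, was 10.05, 9.24, 11.42 and 9.41 in the corpuscle, above the mean of the other E15.5 components by 1.84 (SE 0.42, adjusted p = 0.00641), lost without corpuscle replicate 3 (adjusted p = 0.0804). The second probe set gave 0.30, uncalled. The S-shaped body, at 9.16, 9.51, 10.87 and 8.75, overlapped the corpuscle. Sema7a was lower in the proximal tubule than in the S-shaped body (-2.02, SE 0.65, adjusted p = 0.0394), lost without tubule replicate 2 or S-shaped body replicate 2 or 3 (adjusted p 0.0593 to 0.562). There the second probe set gave -1.31, uncalled.

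The neuropilins, co-receptors for class 3 semaphorins and for vascular growth factors, differed from each other. Nrp2 was 8.14, 9.37, 8.11 and 8.67 in the bud and 9.82 to 12.09 (median 11.52) in the mesenchyme. The groups did not overlap, and the bud was lower by a difference of -2.67 (SE 0.57, adjusted p = 0.00125), with 2 of 3 other probe sets called the same way. In the S-shaped body Nrp2 was 12.94, 11.27, 12.56 and 11.98, and in the corpuscle 9.71, 9.49, 6.31 and 11.95. The corpuscle was lower by a difference of -2.82 (SE 0.66, adjusted p = 0.0376), lost without corpuscle replicate 3 or S-shaped body replicate 1 or 4 (adjusted p 0.0742 to 0.164). Without the 2 libraries against their labels the difference was -3.56 (SE 0.65, adjusted p = 0.000949). With all arrays the 3 other Nrp2 probe sets gave -0.40, -1.22 and -1.17, uncalled. Nrp2 was higher in the interstitium than in the collecting duct by 2.74 (SE 0.71, adjusted p = 0.0181), a call lost without duct replicate 2 or 3 or interstitium replicate 3 (adjusted p 0.0507 to 0.166).

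Nrp1 was 14.14, 14.96 and 14.63 in the ureteric tip and 13.01, 12.38, 12.64 and 12.76 in the bud. The tip was higher without overlap by 1.88 (SE 0.50, adjusted p = 0.0227), lost without tip replicate 2 or 3 or bud replicate 2 or 3 (adjusted p 0.0535 to 0.121), and another probe set gave -1.31. In the proximal tubule Nrp1 was 10.97 and 13.88, below every S-shaped body array (difference -2.38, SE 0.57, adjusted p = 0.00505), but without tubule replicate 1 the adjusted p was 0.418. Nrp1 was higher in the S-shaped body than in the vesicle by 1.58 (SE 0.44, adjusted p = 0.0298), lost without any 1 of vesicle replicates 1, 2 and 5 and S-shaped body replicates 1 and 3 (adjusted p 0.0568 to 0.145).

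Of the plexins, the semaphorin receptors, Plxnc1 had the widest spread of component means. It was 12.22, 11.31, 11.72 and 13.25 in the interstitium, 11.03, 11.18 and 10.65 in the ureteric tip and 7.28, 7.67 and 8.85 in the collecting duct. The interstitium was above the duct without overlap (4.19, SE 0.65, adjusted p = 0.000106) and above all other E15.5 components (3.12, SE 0.48, adjusted p = 7.59e-05), and these calls held under each alternative, with 1 of 3 other probe sets called the same way in each. The tip was above the duct by 3.02 (SE 0.70, adjusted p = 0.0391), the only guidance gene called there, and this call was lost without any tip array or duct replicate 1 or 2 (adjusted p 0.0942 to 0.281). In the corpuscle Plxnc1 was 8.40, 9.99, 7.37 and 6.93, below the mean of the other E15.5 components (-1.62, SE 0.48, adjusted p = 0.0381). The corpuscle mean of 8.17 lay between those of the duct (7.93) and the tubule (8.55). This corpuscle call was lost without any 1 of 6 arrays (corpuscle replicates 1, 3 and 4, tubule replicate 2, duct replicate 3 and tip replicate 2, adjusted p 0.0519 to 0.181). It was also lost without the 2 libraries against their labels (adjusted p = 0.0886).

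Plxna2 was 5.66, 7.29, 7.21, 5.31 and 7.54 in the vesicle and 9.95 to 11.70 (median 10.18) in the mesenchyme. All vesicle arrays were lower (difference -3.94, SE 0.58, adjusted p = 2.03e-05), and this was the only guidance gene still called against the laser capture mesenchyme alone. The 3 other Plxna2 probe sets gave -1.07, -2.05 and -0.06, of which 1 was called. Plxnd1, the endothelial receptor of Sema3e, was 13.23, 11.96, 13.13 and 12.38 in the corpuscle, above the mean of the other E15.5 components by 1.60 (SE 0.42, adjusted p = 0.0198), lost without corpuscle replicate 1 or 3 (adjusted p 0.0856 and 0.0877). The S-shaped body, at 11.89, 11.65, 13.53 and 12.55, overlapped the corpuscle. Plxnb1, the receptor of Sema4d, was 11.84, 11.76, 11.70 and 9.29 in the interstitium and 13.87, 14.05 and 12.88 in the duct. The difference of -2.45 (SE 0.67, adjusted p = 0.0265) was lost without interstitium replicate 4 or duct replicate 1 or 2 (adjusted p 0.0838 to 0.184), and that of -1.66 from the other E15.5 components (SE 0.50, adjusted p = 0.0346) without interstitium replicate 3 or 4, duct replicate 2 or tip replicate 3 (adjusted p 0.0503 to 0.321). Plxnb2 was between 12.33 and 13.36 in all component means and did not differ by the F test (adjusted p = 0.197).

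Slit2, a secreted ligand of Robo receptors, was 15.21, 15.02, 15.86 and 15.17 in the ureteric bud and 13.32 to 14.44 (median 14.12) in the mesenchyme. Every bud array was above every mesenchyme array, and the difference was 1.29 (SE 0.33, adjusted p = 0.00867), with another probe set called at 2.12. The call was lost without bud replicate 3 (adjusted p = 0.0642) and without quantile normalisation (0.93, adjusted p = 0.089). In the ureteric tip Slit2 was 15.77, 14.97 and 15.18, and in the collecting duct 14.14, 13.59 and 13.27. These groups did not overlap either, but the difference was not called (1.64, SE 0.44, adjusted p = 0.128). Slit2 was lower in the proximal tubule (12.16 and 12.44) than in the S-shaped body by a difference of -1.70 (SE 0.47, adjusted p = 0.0158), lost without tubule replicate 1 (adjusted p = 0.129).

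In the corpuscle Slit2 was 11.24, 13.73, 12.47 and 13.44, below the mean of the other E15.5 components (difference -1.04, SE 0.31, adjusted p = 0.0353). The tubule mean was lower still (12.30 against 12.72), and the corpuscle arrays overlapped those of duct and interstitium. The corpuscle call was lost without corpuscle replicate 1 or 3, or tip replicate 1 (adjusted p 0.0511 to 0.304), and fell under the fold threshold without duct replicate 1. Slit3 ran opposite to Slit2 at E11.5. It was 7.91, 7.55, 6.02 and 7.94 in the bud and 9.10 to 10.36 (median 9.74) in the mesenchyme, without overlap (difference -2.37, SE 0.56, adjusted p = 0.00342), in every alternative tried. At E15.5 it was 5.50, 5.61 and 5.70 in the tip.

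The Robo receptors gave 1 call with all arrays. Robo1 was 10.74, 11.34, 11.64 and 11.76 in the S-shaped body and 7.14 and 10.29 in the proximal tubule (difference -2.66, SE 0.83, adjusted p = 0.0351), a call that rests on tubule replicate 1 (adjusted p = 0.581 without it) and was also lost without S-shaped body replicate 2, 3 or 4 (adjusted p 0.0549 to 0.0732). The other Robo1 probe sets gave -1.62 and, with the opposite sign, 0.28, both uncalled. Robo2, the receptor through which Slit2 acts in early kidney development, was read by 1 dim probe set with component means of 6.33 to 8.82 and did not differ by the F test (adjusted p = 0.105). In the corpuscle it was 9.90, 8.64, 9.74 and 6.99, and in the S-shaped body 6.61, 7.52, 9.24 and 6.75. Without the 2 libraries against their labels the corpuscle was higher by 2.47 (SE 0.63, adjusted p = 0.0189), against 1.29 with them. Slit1 was then lower in the corpuscle than in the S-shaped body by a difference of -2.21 (SE 0.60, adjusted p = 0.0274), against -0.95, uncalled, with all arrays.

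Ntn1, the founding netrin, was 5.51, 5.44, 5.43 and 5.45 in the ureteric bud, close to the floor, and 9.46 to 10.71 (median 10.18) in the mesenchyme. The difference was -4.67 (SE 0.91, adjusted p = 0.000441) and held in each alternative, but the gene's second probe set gave 0.18. In the proximal tubule Ntn1 was 10.78 and 11.15 and in the S-shaped body 5.50, 7.27, 8.84 and 5.87. The tubule was higher without overlap by 4.09 (SE 1.29, adjusted p = 0.0367), lost without either tubule array or S-shaped body replicate 1 or 4 (adjusted p 0.0862 to 0.139). The tubule and S-shaped body also differ in the Actb 3′ to 5′ ratio (3.43 to 4.59 against 1.85 to 2.97), whose part in the tubule comparison was not tested. Their Gapdh ratios overlapped (5.30 to 5.61 against 4.23 to 5.81).

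Ntn4, a netrin of basement membranes, was 12.38, 11.09, 12.98 and 7.83 in the corpuscle, with the low value in the library labelled replicate 4. It was 10.67, 10.83, 11.44 and 11.07 in the S-shaped body and 11.25 and 8.80 in the tubule, and at most 8.97 in the 10 arrays of tip, duct and interstitium. The corpuscle exceeded the other E15.5 components by 2.37 (SE 0.60, adjusted p = 0.0137), lost without corpuscle replicate 1 or 3 (adjusted p 0.0903 and 0.134). Without the 2 libraries against their labels the difference was 3.49 (SE 0.55, adjusted p = 8.43e-05). Ntn4 was higher in the S-shaped body than in the vesicle by 2.36 (SE 0.71, adjusted p = 0.0453), lost without any S-shaped body array or vesicle replicate 2, 3, 4 or 5 (adjusted p 0.0559 to 0.136).

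The Unc5 receptors mediate repulsion by netrins, and Unc5c and Unc5d were opposite at E11.5. Unc5c was 12.20, 11.80, 12.49 and 12.19 in the bud and 13.97 to 15.41 (median 14.74) in the mesenchyme. Unc5d was 9.79, 9.16, 10.24 and 9.78 in the bud and 6.57 to 7.81 (median 7.56) in the mesenchyme. Neither gene's groups overlapped, and the differences were -2.56 for Unc5c (SE 0.51, adjusted p = 0.000575) and 2.33 for Unc5d (SE 0.43, adjusted p = 0.000207), each in every alternative tried. The second Unc5c probe set gave -1.16, uncalled.

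Unc5c was also lower in the vesicle (12.18, 12.74, 12.08, 12.14 and 12.35) than in the mesenchyme, by a difference of -2.43 (SE 0.48, adjusted p = 0.000675), or -2.10 (adjusted p = 0.075) with the laser capture mesenchyme alone. It was higher in the interstitium than in the other E15.5 components by 1.83 (SE 0.47, adjusted p = 0.0131), with the second probe set called at 2.36, and the call was lost without interstitium replicate 3 or 4 (adjusted p 0.0785 and 0.076). Unc5d was lower in the tip than in the bud (-1.97, SE 0.54, adjusted p = 0.0266), lost without any tip array or bud replicate 1, 3 or 4 (adjusted p 0.0505 to 0.138).

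Unc5b, an endothelial netrin receptor, was 12.67, 13.21 and 12.60 in the collecting duct and 11.66, 10.48, 11.19 and 10.68 in the interstitium. The groups did not overlap and the difference was -1.83 (SE 0.52, adjusted p = 0.0349), but the call was lost without any duct array or interstitium replicate 2, 3 or 4 (adjusted p 0.0623 to 0.223), and the second probe set gave -0.26. Unc5a was 10.13, 9.32, 8.29 and 8.45 in the S-shaped body and 6.87 to 8.16 in the vesicle (difference 1.61, SE 0.50, adjusted p = 0.05 after rounding), a call lost without any 1 of the arrays compared except vesicle replicate 4 and S-shaped body replicate 4 (adjusted p 0.0548 to 0.186). It was 6.16 and 7.30 in the tubule (difference -2.32 from the S-shaped body, SE 0.64, adjusted p = 0.0159), lost without tubule replicate 1 or S-shaped body replicate 1 (adjusted p 0.221 and 0.0571).

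All 5 calls between vesicle and S-shaped body were thus close to the threshold. Without the 2 libraries against their labels, 0 of 64 guidance genes were called there by limma, with 8 higher and 2 lower at an unadjusted p below 0.05, and 2.58% of all genes called. The 5 genes kept their direction. Ntn4 (2.21, adjusted p = 0.0509) and Unc5a (1.87, adjusted p = 0.0517) missed narrowly, and Sema4f, Nrp1 and Sema3c had adjusted p of 0.0896 to 0.127. Vesicle and S-shaped body share no date in their titles and differ in the Actb 3′ to 5′ ratio (3.87 to 4.44 in the vesicle, 1.85 to 2.97 in the S-shaped body), whose part was not tested. Their Gapdh ratios overlapped (3.64 to 6.45 and 4.23 to 5.81). For the corpuscle against the S-shaped body, leaving the same libraries out gave 10 calls, 2 higher and 8 lower, with 4.07% of all genes called. Between tubule and S-shaped body it gave 14 calls (1956 of all 15709 genes were called, against 1558 with all arrays), of which 9 were among the 11, with Robo1 (adjusted p = 0.0513) and Sema7a (adjusted p = 0.101) lost. Against the other E15.5 components it gave 16 calls for the corpuscle (7.18% of all genes) and 15 for the interstitium (7.56%). The genes added between corpuscle and S-shaped body were Sema3e, Robo2, Epha4, Slit1, Epha7 (-2.01, adjusted p = 0.0371), Slit2 (-1.64, adjusted p = 0.0247) and Sema4d (-1.63, adjusted p = 0.0462).

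Where titles name a date or a way of obtaining the tissue that both components share, the called genes kept their direction within it. Between bud and mesenchyme this held for 13 of 13 genes within the shared date, within dissected arrays and within collagenase arrays. It held for 11 of 11 between tubule and S-shaped body, 8 of 8 between interstitium and duct, and 1 of 1 on each of 2 dates between tip and duct. The genes were called with these same arrays in the fit, so this agreement was largely set in advance and is no independent evidence. These are single arrays on each side of a date, with no test. Restricting bud and mesenchyme to arrays titled dissected or collagenase, with the method as a term, kept all 13 calls and gave 22. The share of all genes called in that fit is not given here.

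Genes that act beside or below these receptors were read from a list of 43, all measured. Between bud and mesenchyme 3 were higher (Vav3, L1cam and Ablim1, with 4.07% of all genes) and 5 lower (Ntng1, Dpysl4, Crmp1, Mical1 and Chl1, with 4.07%). Dpysl4 and Crmp1 encode cytoplasmic mediators of semaphorin signals, and Ntng1 a netrin relative. From mesenchyme to vesicle 2 were higher (3.87% of all genes) and 7 lower (7.93%), and from S-shaped body to tubule 2 were higher (5.64%) and 7 lower (4.28%). In the interstitium 2 were higher than in the other E15.5 components (Flrt2, which encodes an Unc5 ligand, and Ntng1, with 3.49% of all genes) and 3 lower (2.64%). In the corpuscle 2 were higher (Ntng2 and Gpc1, with 2.02%) and 1 lower (Met, with 3.4%). Between tip and duct 0 of 43 were called by limma, with 1 higher and 1 lower at an unadjusted p below 0.05.

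Promoter sequences were listed by RefSeq (GRCm38.p6) for 56 of the 65 genes, each from 250 bases before to 50 bases after the start of a listed transcript. That start lay more than 1000 bases inside the annotated gene for 10 of the 56. It lay 271962 bases inside it for Sema3a and 170 bases inside for Plxnc1, so the Sema3a window is not at the outer end of the gene. The 4 shown belong to Epha3, Sema3a, Sema3e and Plxnc1, the genes with the largest differences in the medullary interstitium, and capitals mark matches to 4 motifs searched on both strands. The forkhead motif was spelled GTAAACA. The Meis motif, bound by homeobox factors of the stroma, was spelled TGACAG. The core promoter element called the TATA box was spelled TATAAA. The GC box, a binding sequence of Sp1, was spelled GGGCGG.
Epha3, chr16:63864126-63864425, minus strand: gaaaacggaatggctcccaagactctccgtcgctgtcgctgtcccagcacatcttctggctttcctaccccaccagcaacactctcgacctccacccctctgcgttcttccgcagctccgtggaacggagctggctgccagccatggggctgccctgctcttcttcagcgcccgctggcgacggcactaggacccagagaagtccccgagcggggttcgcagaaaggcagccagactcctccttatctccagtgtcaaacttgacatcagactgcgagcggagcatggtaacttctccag
Sema3a, chr5:13396534-13396833, plus strand: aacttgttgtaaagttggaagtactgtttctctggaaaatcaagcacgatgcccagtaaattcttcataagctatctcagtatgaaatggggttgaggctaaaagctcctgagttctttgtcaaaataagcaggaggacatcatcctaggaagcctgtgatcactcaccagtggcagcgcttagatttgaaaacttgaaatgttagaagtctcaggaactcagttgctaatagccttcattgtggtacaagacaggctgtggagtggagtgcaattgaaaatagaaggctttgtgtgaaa
Sema3e, chr5:14025026-14025325, plus strand: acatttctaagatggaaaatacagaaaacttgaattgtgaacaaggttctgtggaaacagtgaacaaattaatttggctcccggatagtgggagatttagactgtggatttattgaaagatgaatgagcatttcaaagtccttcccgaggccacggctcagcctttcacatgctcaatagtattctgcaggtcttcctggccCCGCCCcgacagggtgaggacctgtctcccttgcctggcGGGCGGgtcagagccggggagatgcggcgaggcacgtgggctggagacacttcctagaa
Plxnc1, chr10:94944796-94945095, minus strand: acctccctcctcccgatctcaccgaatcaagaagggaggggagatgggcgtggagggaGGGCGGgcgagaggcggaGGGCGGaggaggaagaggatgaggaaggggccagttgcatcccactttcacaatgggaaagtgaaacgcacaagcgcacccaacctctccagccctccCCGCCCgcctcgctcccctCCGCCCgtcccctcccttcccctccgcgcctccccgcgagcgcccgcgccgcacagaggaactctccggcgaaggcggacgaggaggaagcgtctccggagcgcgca

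Plxnc1 held 4 GC boxes and Sema3e 2, whereas the Epha3 and Sema3a windows held none of the 4 motifs. The number of CG pairs was 30 for Plxnc1, 18 for Epha3, 11 for Sema3e and 2 for Sema3a. Over the 56 guidance genes with a promoter, 75% held a GC box, against 35.9% of 27025 promoters of all genes, and the median number of CG pairs was 22.5 against 7. The TATA box was found in 3.57% against 14.2%, the Meis motif in 7 of 56 against 19.3% of all, and the forkhead motif in none of the 56 against 3.55%. The 27025 promoters include those of noncoding genes, and the matches describe these letters in these windows only.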

How the data were processed

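Gene expression was measured on 37 arrays from 9 kidney components. The deposited values are intensity values per probe set on a linear scale, made by the authors with GCOS, per the submitters' processing notes, with each array scaled to a trimmed mean of 1500. The version was not given in the sources used here. Of 45101 probe sets, 64 were controls, 34958 had 1 gene symbol, 932 several and 9147 none. Here 34.66 (the 20th percentile of all values) was added, log2 was taken and arrays were quantile normalised. Probe sets above the pooled median (7.89) on at least 2 arrays were kept (35806, of which 29068 had 1 gene), and the one with the highest mean stood for its gene. One limma model (3.58.1, R 4.3.3) with the 9 components was fitted to 15709 genes, with 28 residual degrees of freedom. A call needs an adjusted p below 0.05 and a log2 difference of at least 1. The code was tested on simulated data. The number of arrays limits the precision.

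Named genes are the up to 5 called members with the largest difference in each direction of each comparison, the highest and the most variable member of each family, and members with textbook roles. Outside the rule, 3 genes were named after their values were seen, namely Efnb3, Efna4 and Slit1. The members and lists were chosen with earlier results of these data known. Alternatives changed the offset, normalisation, filter, probe set, array weights, blocks and samples. Titles gave numbers to only some arrays, and with the title number as a block the within-number correlation was -0.02.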

Additional observations from a re-analysis of the deposited data

Results flagged for a closer look

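Of 89 groups of 4 to 8 arrays examined for the called genes, 6 held an array far from the others, and chance alone gives about 4.5 (1 in 20). In the renal vesicle, Epha3 was 10.84 in replicate 3 against 5.32 to 6.41 in the other arrays, and Sema3c was 8.08 in replicate 1 against 11.07 to 12.21. In the renal corpuscle, Epha1 was 6.78 in replicate 2 against 5.38 to 5.49, and Ephb1 was 13.35 in replicate 1 against 12.09 to 12.13. In the medullary interstitium, Efnb2 was 12.78 in replicate 1 against 12.20 to 12.28, and Plxnb1 was 9.29 in replicate 4 against 11.70 to 11.84.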

How the results depend on the processing

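The number of called guidance genes moved with the setting as follows. The share of all genes called can move too. Between corpuscle and S-shaped body it was 0.579% with all arrays and 4.07% without the 2 libraries against their labels. The counts below are given without that share, so they do not set a change in guidance genes apart from a change over all genes. Between bud and mesenchyme (13) it was 22 when the fit held only these components, 22 when the method in the titles was a term and 25 under array weights. Between vesicle and mesenchyme (7) it was 12 with the stricter filter, with the probe set of largest variance, with array weights and without the 2 libraries against their labels, 11 in a fit of those components alone and 1 with laser capture mesenchyme. Between S-shaped body and vesicle (5) it was 3 with a smaller offset, without probe sets that can bind related transcripts, with array weights and with the replicate block on title numbers, 2 without a filter and with the date block, and 0 without the 2 libraries or in a fit of those components alone (9 higher and 3 lower at an unadjusted p below 0.05 by limma). Between corpuscle and S-shaped body (3) it was 1 with the date block, 10 without the 2 libraries and 0 in a fit of those components alone (1 and 5). Between tubule and S-shaped body (11) it was 3 with array weights and 2 in a fit of those components alone. Between tip and duct (1) it was 12 with array weights and 0 without quantile normalisation (4 and 4), with the largest-variance probe set (5 and 3) and in a fit of those components alone (6 and 6). Between tip and bud (4) it was 17 with array weights and 13 in a fit of those components alone, between interstitium and duct (8) 16 with array weights, and for the corpuscle against the rest (12) 7 with array weights. Leaving out each array in turn gave 10 to 14, 6 to 11, 0 to 7, 0 to 6, 4 to 13, 0 to 2, 1 to 5, 2 to 10, 5 to 16 and 5 to 15 calls in the 10 comparisons in their order above, and 44 to 50 by the F test. The largest-variance probe set reversed Sema5a in bud against mesenchyme (-0.30), Nrp1 in S-shaped body against vesicle (-0.18) and Sema5a in tip against bud (3.85). The title numbers mark no stated shared animal, litter or day, and the block on them lost 2 of the 76 calls. The cause of these changes was not tested.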
